A study of Mus musculus with 6 samples.

Results

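A set of 9 claudin and epithelial junction genes were described across pools of RNA from mouse alveolar type II cell isolates with and without Insig1. These were Cldn3, Cldn4, Cldn7, Cldn18, Ocln, Tjp1, Cdh1, Epcam and F11r, that is 9 of the 12952 genes tested. The members are those whose symbol the platform annotation gives exactly, and this took 16 of the 45101 probe sets of the array. All 9 genes had at least 1 probe set above the filter on dim signals, which left out probe sets whose mean log2 signal over the 6 arrays lay below 8.08 (signal 271), and 15 of the 16 probe sets passed it. No probe set naming several genes held a member.

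The 3 control pools came from Insig1 flox/flox, Insig2 -/- mice that lacked either SpC-rtTA or Otet-CRE, and the 3 deleted pools from Insig1 ∆/∆, Insig2 -/- mice that carried both transgenes. Per the labels, doxycycline was given from E6.5 to E12.5 of gestation and cells were taken at 2 months of age. Insig2 was therefore absent in both groups by genotype, and the comparison asks how transcripts differ when Insig1 is lost as well. Cre was driven by the doxycycline-dependent rtTA of the SFTPC promoter, which is active in the developing distal lung epithelium, so an effect of the transgenes cannot be told apart from that of the deletion. Each array held 1 independent pool, and how many mice made up a pool is not stated in the labels. The targeted gene, Insig1, read 2300, 3325 and 2960 in control pools 1 to 3 and 1252, 1442 and 1750 in deleted pools 1 to 3 on its 1 probe set, so the deleted pools were lower without losing the signal, and whether that probe set lies in the deleted part was not resolved here. The limma adjusted p was 0.068. The signals are deposited MAS5 intensities on a linear scale, each array scaled alone, and log2 fold changes give the deleted group relative to controls.

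Epithelial cells are joined by belts of junctions near their apical side. Claudins and occludin span the membrane at the tight junction and, with the scaffold protein ZO-1, set how readily ions and water pass between cells, while E-cadherin holds neighbouring cells together at the adherens junction. In the alveolus these contacts keep the air space dry, and claudin-18, claudin-3 and claudin-4 are the claudins best known there. INSIG proteins restrain SREBP transcription factors, which drive sterol and fatty acid synthesis genes.

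Cldn4 and Cldn3 are neighbours on mouse chromosome 5, with 39279 bases between the gene bodies, and Cldn18 on chromosome 9 has more than one start site in RefSeq, 7204 bases apart, which are known to give lung and stomach forms of the protein. Their start regions are shown because Cldn4 had the largest difference among the 9 genes, its neighbour Cldn3 one of the smallest, and Cldn18 alone lay above 0. Each window runs from 250 bases before to 50 after an annotated start (RefSeq, GRCm38.p6), 5′ to 3′ on the gene's strand, with matches to the GC box GGGCGG on either strand in capitals.
Cldn4, chr5:134946885-134947184, minus strand: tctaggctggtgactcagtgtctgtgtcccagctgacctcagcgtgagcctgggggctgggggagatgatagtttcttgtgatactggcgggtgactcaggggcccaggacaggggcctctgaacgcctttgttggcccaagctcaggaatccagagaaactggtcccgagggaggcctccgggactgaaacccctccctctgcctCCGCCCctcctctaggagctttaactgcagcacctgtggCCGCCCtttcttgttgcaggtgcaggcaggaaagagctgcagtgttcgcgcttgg
Cldn3, chr5:134985964-134986263, plus strand: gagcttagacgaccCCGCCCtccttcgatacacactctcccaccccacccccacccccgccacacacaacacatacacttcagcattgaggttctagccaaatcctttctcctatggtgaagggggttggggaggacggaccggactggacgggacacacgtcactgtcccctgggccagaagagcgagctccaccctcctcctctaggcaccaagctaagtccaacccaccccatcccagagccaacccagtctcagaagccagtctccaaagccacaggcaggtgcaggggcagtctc
Cldn18 upstream start, chr9:99717218-99717517, minus strand: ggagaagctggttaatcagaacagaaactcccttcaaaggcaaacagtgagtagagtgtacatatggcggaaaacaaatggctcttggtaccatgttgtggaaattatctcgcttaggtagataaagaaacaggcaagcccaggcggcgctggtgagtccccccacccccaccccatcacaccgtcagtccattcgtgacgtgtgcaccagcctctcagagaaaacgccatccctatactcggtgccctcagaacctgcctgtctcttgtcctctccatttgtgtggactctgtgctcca
Cldn18 downstream start, chr9:99710014-99710313, minus strand: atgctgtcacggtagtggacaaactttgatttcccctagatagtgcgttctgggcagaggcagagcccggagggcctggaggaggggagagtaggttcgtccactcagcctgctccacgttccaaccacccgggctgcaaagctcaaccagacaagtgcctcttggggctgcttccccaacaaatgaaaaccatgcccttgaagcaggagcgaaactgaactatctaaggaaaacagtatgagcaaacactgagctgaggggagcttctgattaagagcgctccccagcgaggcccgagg

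The Cldn4 window held 2 GC boxes, the Cldn3 window 1, and neither Cldn18 window held any. Over the 11 windows found for 8 of the 9 genes, 8 held the GC box, against 35.7% of all 32851 windows of the same length. The 11 windows had a GC content of 52% to 68%, where the median of all windows was 52.7%. Cldn7, Cldn18 and Ocln each gave 2 windows, and those of Ocln overlap. The E-box CACGTG was in 1 of the 11 windows, that of Epcam, and in 7.15% of all windows. The SREBP element core TCACNCCAC (1.24% of all windows), the grainyhead site AACCGGTT (0.146%) and the TATA element TATAAA (13.6%) were in none of the 11, where both strands were searched. The letters of a motif are a description of these windows.

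None of the 9 genes passed the threshold of an adjusted p under 0.05 (limma, adjusted over all genes tested), where 0.649% of the 12952 genes did. Of the genes that passed, 81 were higher and 3 lower in Insig1-deleted pools. Of the 9, 8 had a lower mean log2 signal in Insig1-deleted pools, where 50.9% of all genes tested did. The median log2 fold change of the 9 was -0.24 against -0.0049 over all genes tested. At an unadjusted p under 0.05 the count was 2 of 9, Cldn4 and Ocln, both lower, and 6.02% of all genes were lower at that p. The deleted pools all lay below the controls for 3 of 9, Cldn4, Ocln and Tjp1, and 7.90% of all genes had groups apart in that direction. The arrays show relative signal only, so fewer cells of a type in an isolate and less RNA per cell cannot be told apart. Over the probe sets, 0 of the 15 tested passed the adjusted threshold (0.322% of all 27022 probe sets did), 3 were lower at an unadjusted p under 0.05 (5.35% of all) and 13 had values below 0. Several of the 15 belong to the same gene, and the share of all probe sets below 0 is not given here.

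**Figure D1:**
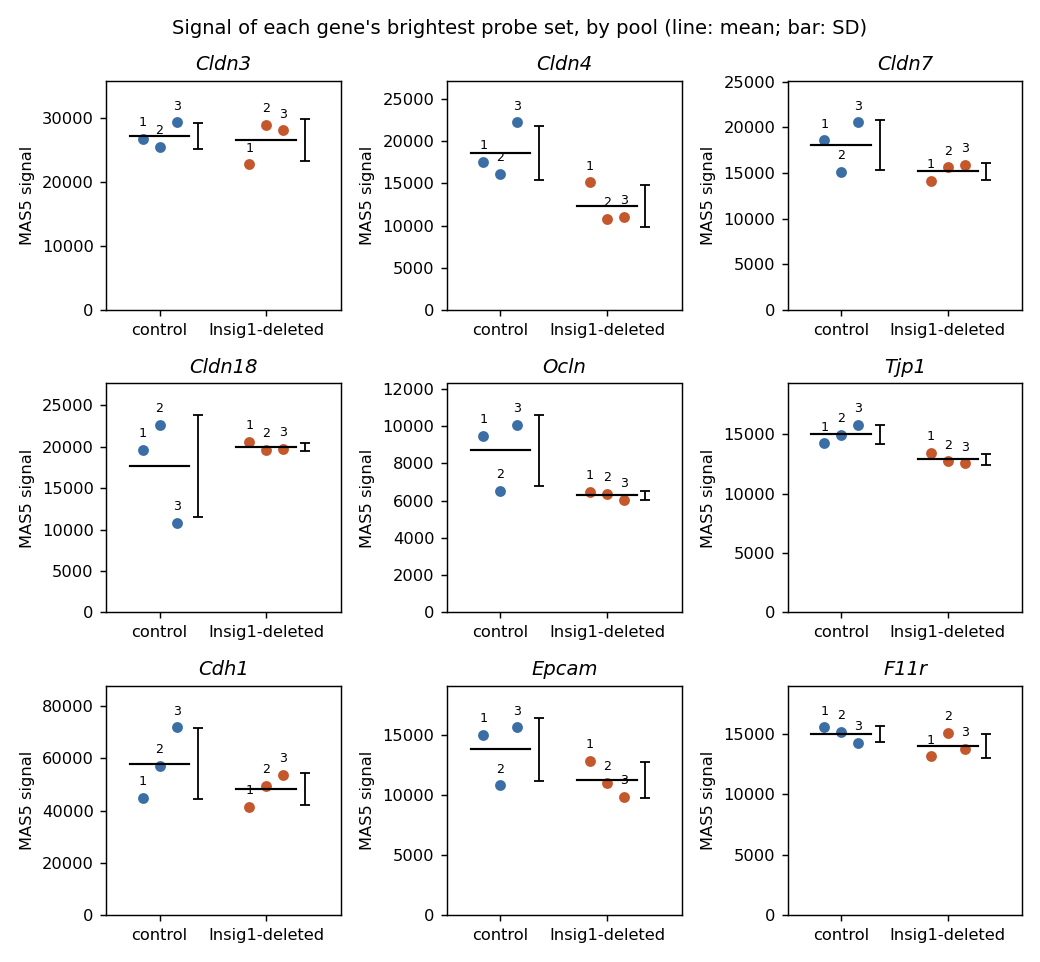
MAS5 signal (linear axis from 0) of the brightest probe set of each gene in the 3 control and 3 Insig1-deleted pools, with pool numbers beside the points, the mean as a line and the SD as a bar. Deleted pools lie below all control pools for Cldn4, Ocln and Tjp1, and control pool 3 has the lowest Cldn18 signal, 10823.

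Among the claudins, Cldn4 had the largest difference. Claudin-4 is a sealing claudin of tight epithelia that is induced in injured alveoli. Its signal was 17561, 16109 and 22218 in control pools 1, 2 and 3 and 15121, 10761 and 11022 in deleted pools 1, 2 and 3. All 3 deleted pools lay below the lowest control pool, with deleted pool 1 next to control pool 2. The mean ± SD was 12301 ± 2445 in deleted and 18629 ± 3191 in control pools (n = 3 each). The log2 fold change was -0.60 ± 0.17 (SE), or 1.52-fold higher in controls. The limma adjusted p of 0.20 missed the threshold (unadjusted p = 0.0055), and the 95% interval before adjustment ran from -0.98 to -0.23. Leaving out 1 pool at a time moved the fold change between -0.76, without deleted pool 1, and -0.47, without control pool 3, and the smallest limma adjusted p was 0.071, without control pool 2. The unadjusted limma p in that fit was 0.0036, against 0.0055 with all pools. With array weights the Cldn4 fold change was -0.63 and also missed the threshold (limma adjusted p = 0.061).

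Cldn3 is the neighbour of Cldn4 and encodes its close relative. The brightest of its 4 probe sets read 26791, 25513 and 29369 in control pools 1 to 3 and 22785, 28963 and 28094 in deleted pools 1 to 3. The groups overlapped, with deleted pool 1 the lowest of the 6 and control pool 3 the highest. The log2 fold change was -0.038 ± 0.12, with a 95% interval from -0.32 to 0.24 (limma adjusted p = 0.94), and its sign turned to 0.040 with arrays shifted to a common median, 0.018 with array weights or without control pool 3, and 0.070 without deleted pool 1. The other probe sets gave -0.072, -0.037 and -0.094. The brightest and one other are of the x_at kind, which may also bind other transcripts, and the dimmest, with -0.094, is not.

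Cldn7 encodes a claudin that sits along the lateral membrane and binds EpCAM. Its signal was 18558, 15106 and 20540 in control pools and 14131, 15607 and 15870 in deleted pools, in order of pool number. Control pool 2 lay inside the range of the deleted pools, so the groups overlapped. This gave a log2 fold change of -0.24 ± 0.13 (limma adjusted p = 0.51), which was -0.36 without control pool 2 and -0.14 without control pool 3.

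Cldn18, whose claudin-18 is the signature tight junction protein of alveolar epithelium, was the 1 gene of the 9 with a value above 0. Control pools 1, 2 and 3 had signals of 19657, 22647 and 10823, and deleted pools 20577, 19635 and 19772. The deleted pools lay within 1.05-fold of each other, while the control pools spanned 2.09-fold because of the low control pool 3. The log2 fold change of 0.24 ± 0.23 (limma adjusted p = 0.75) rested on that pool and was -0.078 without it (limma adjusted p = 0.85), 0.45 without control pool 2 and 0.12 with array weights. The dimmer probe set gave 0.17 ± 0.18, with signals of 2198, 3094 and 2014 in control and 2901, 2726 and 2461 in deleted pools. On that probe set control pool 3 lay close to control pool 1, and both lay below all deleted pools. Which of the printed start sites each probe set reads was not resolved here.

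Some markers of alveolar cells were low in the same control pool and others were high there. Among the 3 control pools, control pool 3 had the lowest signal for 10 of 13 type II markers and the highest for 2, and the lowest for 4 of 12 type I markers and the highest for 6. Sftpc, which encodes surfactant protein C, was highest there (97603, 119618 and 143129 in control pools 1 to 3). Ager, the receptor gene that marks type I cells, had signals of 48866, 72414 and 27536 in control pools 1 to 3 and between 64032 and 75569 in deleted pools. Muc1, a mucin gene, read 25822, 31386 and 14948 in controls, and Etv5, a transcription factor gene of type II cells, read 28320, 27887 and 15263. Their log2 fold changes were 0.61, 0.54 and 0.44, with limma adjusted p of 0.43, 0.40 and 0.45. Muc1 and Etv5 had the smallest p of the type II markers. The genes most like Cldn18 over the 6 pools were R74862, Mitf and Unc119, with Pearson correlations of log2 signal of 0.996, 0.996 and 0.994. These values share the low control pool, and 446 of the 12951 other genes reached 0.9. Without control pool 3 the correlations were 0.929, 0.989 and 0.866 over 5 pools. The 3 genes were picked on values that include these 5 pools, and how many genes reach 0.9 over the 5 is not given here.

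Ocln encodes occludin, a membrane protein of the tight junction strand. Its brighter probe set read 9478, 6528 and 10067 in control pools 1 to 3 and 6455, 6369 and 6025 in deleted pools 1 to 3. The groups did not overlap, but control pool 2 lay next to the deleted pools. Means were 6283 ± 228 in deleted and 8691 ± 1896 in control pools (n = 3 each). The log2 fold change was -0.44 ± 0.16 with a 95% interval before adjustment from -0.81 to -0.078. It missed the threshold (limma adjusted p = 0.33, unadjusted p = 0.023). The dimmer probe set had the same order of groups, with 3549, 3003 and 4127 in control against 2823, 2523 and 2315 in deleted pools, and gave -0.47 ± 0.15. Without control pool 2 the gene passed, at -0.64 ± 0.11 (limma adjusted p = 0.017), but the share of all genes that passed without that pool is not given here. Without control pool 3 the fold change was -0.32 (limma adjusted p = 0.48). With array weights it was -0.49 and missed the threshold (limma adjusted p = 0.082).

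F11r encodes JAM-A, an immunoglobulin-like adhesion protein of the tight junction. Control pools 1 to 3 had signals of 15573, 15198 and 14284 and deleted pools 13149, 15118 and 13785. The groups overlapped and the spread was small in both, 1.09-fold from lowest to highest in control and 1.15-fold in deleted pools. The log2 fold change was -0.10 ± 0.10 with a 95% interval from -0.34 to 0.13 (limma adjusted p = 0.76). It was -0.056 without deleted pool 1, -0.16 without deleted pool 2 and -0.022 with arrays shifted to a common median. The other F11r probe set lay below the filter, with a mean log2 signal of 7.78 (signals from 174 to 274), and was not tested.

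Tjp1 encodes ZO-1, the scaffold that ties claudins and occludin to actin. Its signal was 14213, 14952 and 15783 in control pools and 13429, 12712 and 12544 in deleted pools, in order of pool number. All deleted pools lay below all control pools, in a narrow range. Means were 12895 ± 470 and 14983 ± 785 (n = 3 each), and the log2 fold change of -0.22 ± 0.10 had a 95% interval from -0.44 to 0.0093 (limma adjusted p = 0.42). It ran from -0.25 to -0.18 as single pools were left out, the narrowest range relative to its size among Cldn4, Ocln and Tjp1, and was -0.14 with arrays shifted to a common median.

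**Figure D2:**
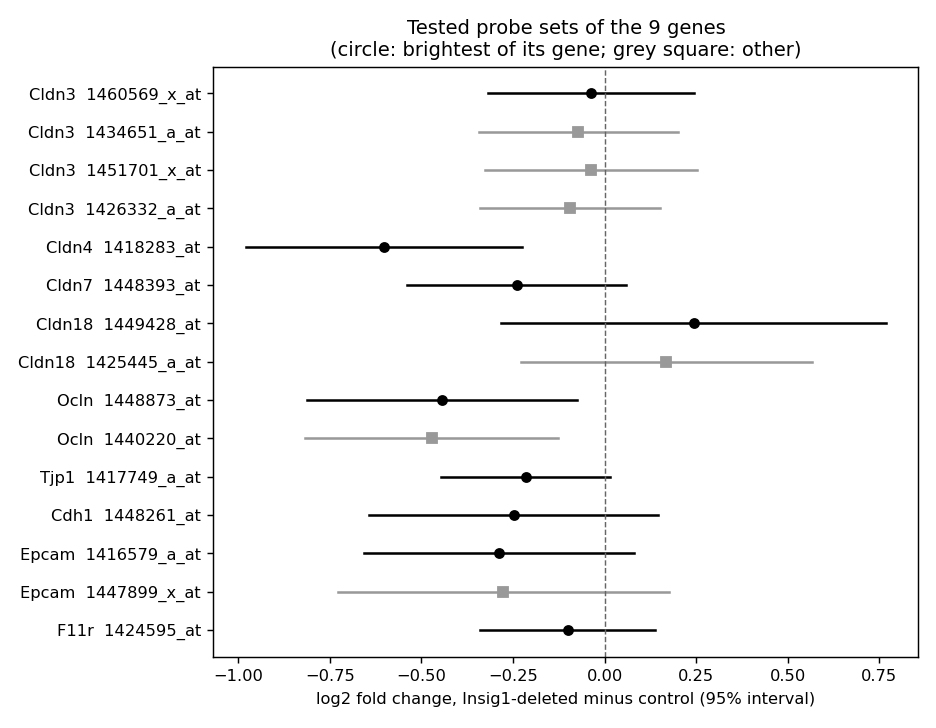
Log2 fold change (deleted minus control) of the 15 tested probe sets of the 9 genes, with 95% intervals before adjustment from the fit over all probe sets; black circles are the brightest probe set of a gene, grey squares the others. The Cldn4 probe set and both Ocln probe sets have intervals wholly below 0, and both Cldn18 probe sets lie above 0 with intervals that cross it.

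Cdh1 encodes E-cadherin, the adhesion protein of the adherens junction. Control pools 1, 2 and 3 read 44906, 57088 and 71903, and deleted pools 41489, 49548 and 53594. The control pools spanned 1.60-fold, and control pool 1 lay within the range of the deleted pools. Its log2 fold change of -0.25 ± 0.18 (limma adjusted p = 0.63) went from -0.42 without control pool 1 to -0.079 without control pool 3, and was -0.14 without deleted pool 1 and -0.071 with array weights.

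Epcam encodes an epithelial adhesion protein that stabilises claudin-7 and is itself cut by the membrane protease matriptase. Its brighter probe set read 14997, 10793 and 15626 in control pools and 12847, 11024 and 9820 in deleted pools, in order of pool number. Control pool 2 again lay among the deleted pools. On the log2 scale the difference was -0.29 ± 0.16 (limma adjusted p = 0.52), -0.46 without control pool 2 and -0.19 without control pool 3. The dimmer probe set gave -0.28 ± 0.20.

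No order of pools held for all 9 genes. Control pool 3 had the highest signal of all 6 pools for 7 of the 9 (all but Cldn18 and F11r), and control pool 2 the lowest control signal for 5 (Cldn3, Cldn4, Cldn7, Ocln and Epcam). Among controls, control pool 3 was also highest for 11 of 14 airway, 12 of 13 lymphocyte and 6 of 6 mesothelial markers. It was highest for 10 of 18 endothelial, 8 of 16 mesenchymal and 6 of 16 macrophage markers. Any link to the junction values was not tested. Control pool 3 also lay apart over all genes, with a score of -39.1 on principal component 1, which carried 35.7% of the variance, against -12.9 to 18.7 for the rest. Its array weight of 0.437 was the smallest of the 6. Without it the median log2 fold change of the 9 genes was -0.14, and 0 of the 9 passed.

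**Figure D3:**
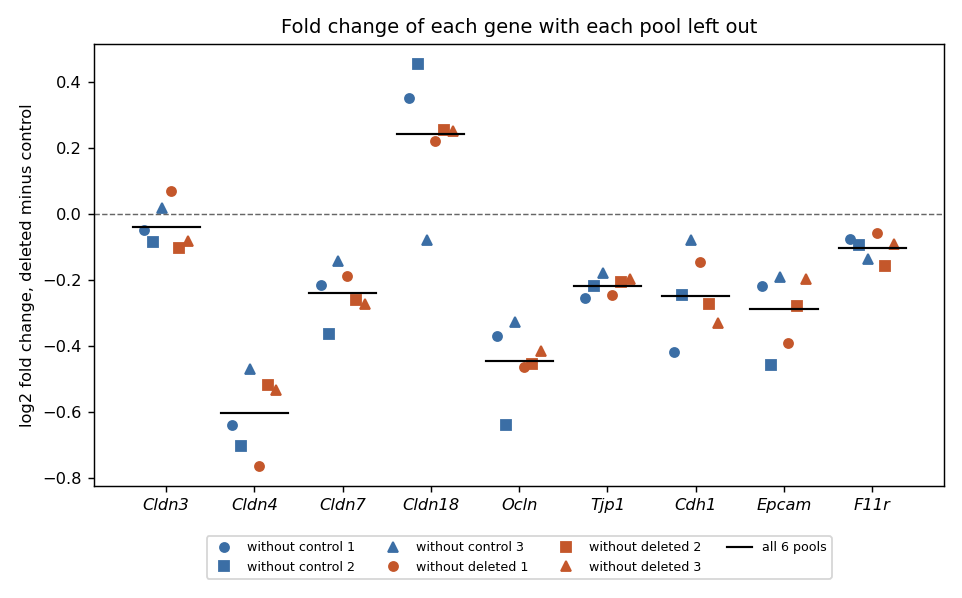
Log2 fold change (deleted minus control) of each gene with all 6 pools (black lines) and with each pool left out in turn (points; blue for control, orange for deleted pools). Cldn4, Cldn7, Ocln, Tjp1, Cdh1, Epcam and F11r stay below 0 at every point, while Cldn18 goes to -0.078 without control pool 3 and Cldn3 crosses 0.

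Other genes of cell junctions came from 7 lists with 113 genes, of which 88 were tested, 15 lay below the filter and 10 had no probe set naming them alone here. None of the 88 passed the threshold by limma over all genes (smallest adjusted p 0.12), 12 were lower and 2 higher when p was under 0.05 without adjustment, where 6.02% and 6.05% of all genes were, and their median log2 fold change was -0.10. Among the other tight junction membrane and scaffold proteins, 4 of 22 were lower at that p and none higher. Cgn, the gene of the tight junction plaque protein cingulin, read between 4421 and 4528 in deleted and between 5721 and 6165 in control pools (log2 -0.40 ± 0.10, limma adjusted p = 0.19). The polarity gene Pard6b had -0.53 ± 0.15 (limma adjusted p = 0.22). Prkci, the atypical protein kinase C that acts with it, had -0.39 and Crb3, an apical polarity gene, -0.26. These last names were chosen after their values were seen. For all 4, which are those lower at that p, the groups did not overlap. In the whole list 5 of 22 had deleted pools below all controls, where 7.90% of all genes did. In 1 gene the deleted pools lay above all controls, and the share of all genes in that direction is not given here.

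Of 10 other claudins tested, 2 were lower by the unadjusted p, where 6.02% of all genes were, and the median was -0.093. Cldn8 had a log2 fold change of -0.67 ± 0.22 and Cldn10, an ion-channel-forming claudin, -0.41 ± 0.15 (limma adjusted p of 0.30 and 0.33). Of 15 adherens junction partners 1 was lower by that p, which is near the share over all genes. It was Ajuba, a junction-associated LIM protein gene, with 2233 to 2661 in deleted against 3215 to 4579 in control pools (log2 -0.72 ± 0.16, limma adjusted p = 0.12). The list's median was -0.16, and Jup, the plakoglobin gene, had -0.28. Desmosome and hemidesmosome genes had a median of -0.26 with 2 of 12 lower by that p, the desmosomal cadherin gene Dsg2 (-0.62) and the plakophilin gene Pkp2 (-0.38).

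**Figure D4:**
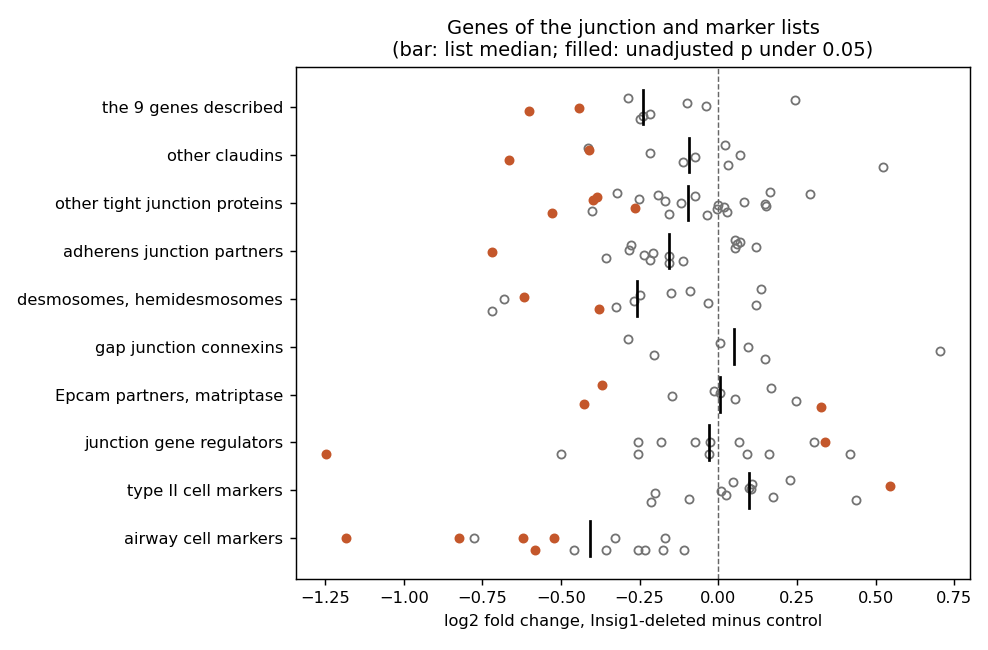
Log2 fold change (deleted minus control) of every tested gene, 1 point a gene, in the 9 described genes, the 7 other junction lists, and type II and airway cell markers; bars are list medians and filled points have an unadjusted p under 0.05. Medians run from -0.26 for desmosome genes to 0.050 for connexins among the junction lists, and all 14 airway markers lie below 0.

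Connexin genes of gap junctions had a median of 0.050 over 6 tested genes, with none past an unadjusted p of 0.05. Gjb1 had 0.70 ± 0.36 and Gja1 0.15 ± 0.14. Of 9 genes for partners of EpCAM, the matriptase system and tetraspanins, 2 were lower and 1 was higher by the unadjusted p. Over all genes 6.02% were lower and 6.05% higher at that p. Spint1 (-0.37 ± 0.11), an inhibitor of matriptase, and Prss8 (-0.43 ± 0.13), the protease prostasin, were the lower ones (limma adjusted p of 0.23 and 0.24). The higher one was Cd44, a hyaluronan receptor gene that macrophages also express (0.33, chosen after its value was seen). Of 14 regulators of junction genes Snai2, a repressor of Cdh1, had -1.25 ± 0.36 and Ovol1 0.34 ± 0.14 (limma adjusted p of 0.23 and 0.39). Snai2 was read by a dim probe set of the x_at kind, with 699, 1139 and 1092 in control and 278, 710 and 330 in deleted pools. Its groups overlapped, and the lowest signals lay near the filter.

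Markers of other cells moved between the groups, and their part in the junction values was not tested. Airway epithelium also makes these junction proteins. All 14 airway markers tested had values below 0 (median -0.41), 2 of them fell by limma, Ccdc153 (-1.18, adjusted p = 0.014) and Sox2 (-0.83, adjusted p = 0.030), and Trp63 lay below the filter. Their summed signal ranged from 392581 to 550512 in deleted and from 502243 to 666692 in control pools, highest in control pool 3, and no marker signal was 0. The secretory cell marker Scgb1a1 lay at the top of the range of every array (141333 to 197205) with a log2 fold change of -0.11, so airway transcripts were measured in both groups.

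Of 16 macrophage markers tested 10 rose by limma (median 1.02), and their sum ranged from 134127 to 154174 in deleted and from 57244 to 80265 in control pools. Gpnmb (1.86), Cd68 (0.9996), Marco (2.26) and Mpeg1 (1.37) had the smallest p. The type II marker Sftpc read between 80090 and 143129 (log2 -0.20, limma adjusted p = 0.74), and none of 13 type II markers passed (median 0.099, 1 higher at an unadjusted p under 0.05). Of 12 type I markers none passed (median 0.019), and Krt7 had the smallest p (-0.53 ± 0.12, limma adjusted p = 0.12). Among endothelial markers, where Tjp1 and F11r are also made, Car4 alone of 18 rose (0.89, limma adjusted p = 0.030), the median was -0.042 and Pecam1 had 0.092. Lymphocyte (13 tested, median 0.40, Ccr7 1.27 and Cd2 0.84), mesenchymal (16 tested, -0.056, Tcf21 -0.49, Pdgfra -0.46 and Col1a1 -0.13) and mesothelial markers (6 tested, -0.44, Lrrn4 -0.56 and Wt1 -0.47) had none past the threshold by limma, with 4 higher, 1 lower and none at an unadjusted p under 0.05. Over all genes 6.05% were higher and 6.02% lower at that p.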

How the data were processed

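Total RNA from 6 pools of isolated mouse type II cells, 3 per genotype, was measured on Affymetrix arrays per the labels. The authors deposited linear signal intensities, 1 per probe set, made with MAS5 per the submitters' processing notes; no version is given there. MAS5 scales each array alone, and array medians lay between 426 and 479. Genes were named from the platform annotation (34945 probe sets name 1 gene, 932 several and 9160 none here; 64 are controls), and 34741 of the former matched RefSeq of GRCm38.p6 by Entrez number.

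A floor of 1 was set before taking log2. Probe sets below the 40th percentile of mean log2 signal were left out (27022 stayed), and of those naming 1 gene the brightest stood for it (12952 genes). The test was two-sided, by limma 3.58.1 (R 4.3.3), using lmFit and then eBayes with its intensity trend. P-values were adjusted over all genes by Benjamini-Hochberg, and the threshold was 0.05. A second fit took all probe sets. An exact permutation test (two-sided) of 3 pools against 3 cannot go below 0.1, so limma alone was used. Each limma p sets the group difference against the spread between pools, which eBayes draws toward its trend over all genes. The number of pools limits the precision. The steps were tested on simulated data. Figures were drawn with matplotlib 3.10.9.

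The 9 genes, the lists and the tests were chosen with earlier results of these data known. From each other list the genes named are up to 4 past the threshold, or the 2 smallest p if none passed, plus 6 defining markers (Sftpc, Ager, Scgb1a1, Marco, Pecam1, Col1a1) and the 3 genes most correlated with Cldn18. Genes named outside that rule are said to be so, apart from the targeted gene Insig1 and the airway marker Trp63, which was not tested.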

Additional observations from a re-analysis of the deposited data

How the results depend on the processing

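Alternatives were quantile normalization, a common median, log2 of the signal plus 16, a filter at the 60th percentile or none, array weights, the mean over probe sets, a fit without the intensity trend, other thresholds, the pool number as a block and each pool left out. The counts of the 9 genes, their probe sets and other junction genes past the threshold stayed at 0 in these except as follows. At an unadjusted p under 0.05 they were 2, 3 and 14. With single pools left out they ran from 0 to 1, 0 to 1 and 0 to 3, the highest all without control pool 2, where Ocln, Ajuba (adjusted p = 0.011), Pard6b (0.027) and Dsg2 (0.014) passed by limma. The share of all genes past the threshold in that fit is not given here. With array weights 1 other junction gene passed, Ajuba (adjusted p = 0.029). The median log2 fold change of the 9 genes lay between -0.27 with quantile normalization and -0.14 without control pool 3. Cldn3 (-0.038) turned to 0.040 with a common median and 0.018 with array weights, and ran from -0.10 to 0.070 as pools were left out, above 0 without control pool 3 or deleted pool 1. Cldn18 (0.24) ran from -0.078 to 0.45, below 0 without control pool 3. The other 7 genes kept their sign in all 15 alternatives with a value. Leaving a pool out shows which array a value depends on, and the causes were not tested.

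Deviations of pools with the same number from their group means correlated at 0.074, 0.040 and 0.15 over genes. For pools with different numbers the correlations ran from -0.13 to 0.052. Deleted pool 2 correlated better with control pool 1 (0.052) than with its own number. Whether the numbers mark pairs of pools was not resolved here. With the pool number as a replicate block the counts were 0, 0 and 0 and the median was -0.24. Signals near the top of the range, such as those of Scgb1a1, and dim ones such as the second F11r probe set limit what differences can be seen.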
